A study of Saccharomyces cerevisiae with 6 samples.

Results

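The translation factors of *Saccharomyces cerevisiae* are the proteins that start, extend and end the synthesis of a protein on the ribosome. A list of 46 genes was taken, with initiation factors, the Gcn proteins that control initiation, elongation factors and release factors, and each gene was matched by its symbol in the gene table of the array platform. Of these, 43 had a probe set listed under their symbol, among 5449 yeast genes measured, and each of the 43 had 1 such probe set. *TIF1*, *TEF1* and *EFT1* had none. The probe sets listed for *TIF2*, *TEF2* and *EFT2* carry the suffix that Affymetrix gives to probe sets shared by several transcripts, and each of the genes *TIF1*, *TEF1* and *EFT1* encodes the same protein as its partner, so the members of these pairs cannot be told apart here.

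RNA was measured on 6 arrays of the haploid strain BY4742 (mating type alpha, with the mutations *his3Δ1*, *leu2Δ0*, *lys2Δ0* and *ura3Δ0* in all groups), which was grown in rich glucose medium for 24 h and then moved for a further 24 h to fresh medium with no addition (untreated control), with nystatin at 0.27 mg per L, or with the same nystatin and cadmium sulphide quantum dots (CdS QDs) at 100 mg per L. Nystatin binds ergosterol in the fungal membrane and was added by the authors to ease the entry of the particles, and a culture with CdS QDs but no nystatin was not part of the arrays. The nystatin dose is that of the sample labels, and the paper states a slightly lower one. Below, nystatin plus CdS QDs is written CdS QDs, and control means untreated control. Each group held 2 arrays, which came from aliquots of RNA extract, so that the spread between them may be technical and the tests below measure only that spread. Across 5498 probe sets, replicate arrays correlated at 0.998 to 0.999. Probe sets of *LYS2* and *URA3* lay below the background on every array and *LEU2* was at 1.29 to 2.29 log2 units, while *HIS3* was read at 7.84 to 8.63. Genes particular to alpha cells were read at 5.22 to 9.61 and those of a cells at 3.57 to 5.79. RNA came from whole cultures, in which a change in the mixture of cells and a change in RNA per cell cannot be told apart, and the normalization gives each array the same distribution, so that a change of all transcripts together is not seen. The signal of 3' probes minus that of 5' probes in 7 control genes averaged 1.58 log2 units with CdS QDs and 1.45 on the other 4 arrays, and its part in the differences below was not tested.

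Initiation begins when the cap-binding complex eIF4F and the poly(A)-binding protein take hold of the mRNA, while eIF2 brings the initiator tRNA to the small ribosomal subunit, which carries eIF1, eIF1A, eIF3 and eIF5 and scans to the start codon. eIF2B reloads eIF2 with GTP. When amino acids run short the kinase Gcn2 phosphorylates eIF2, eIF2B is inhibited and translation of *GCN4* mRNA, which encodes the activator of amino acid synthesis genes, goes up. Elongation in fungi needs eEF1A, its exchange factor eEF1B, eEF2 and the fungal ATPase eEF3, and release needs eRF1 and eRF3. Many translation factor genes are strongly expressed in growing yeast, and control of *GCN4* is mostly exerted on its translation, which these arrays do not read.

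With CdS QDs, 18 of the 43 factor genes rose against the control and 14 fell, the median log2 fold change being 0.06, and 11 did not pass the test (limma, Benjamini-Hochberg adjusted p under 0.05 over 5498 probe sets). In the same comparison 75.4% of all probe sets tested were called (36.5% rose and 38.9% fell, median −0.01), so the share of factor genes called, 74.4%, was close to the background. The sizes of the changes were small. The median size was 0.24 log2 units for the factors and 0.33 over all probe sets tested, and 2 of the 43 factors, *TIF4632* and *HEF3*, were called with a change of at least 0.5, against 33.4% of all probe sets. A stricter rule, a log2 fold change of 1 or more in size with an unadjusted p under 0.01, was passed by *HEF3* alone of the factors and by 10.1% of all probe sets. The arrays of the 2 groups did not overlap for 39 of the 43 factors and for 87.5% of all probe sets.

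**Figure D1:**
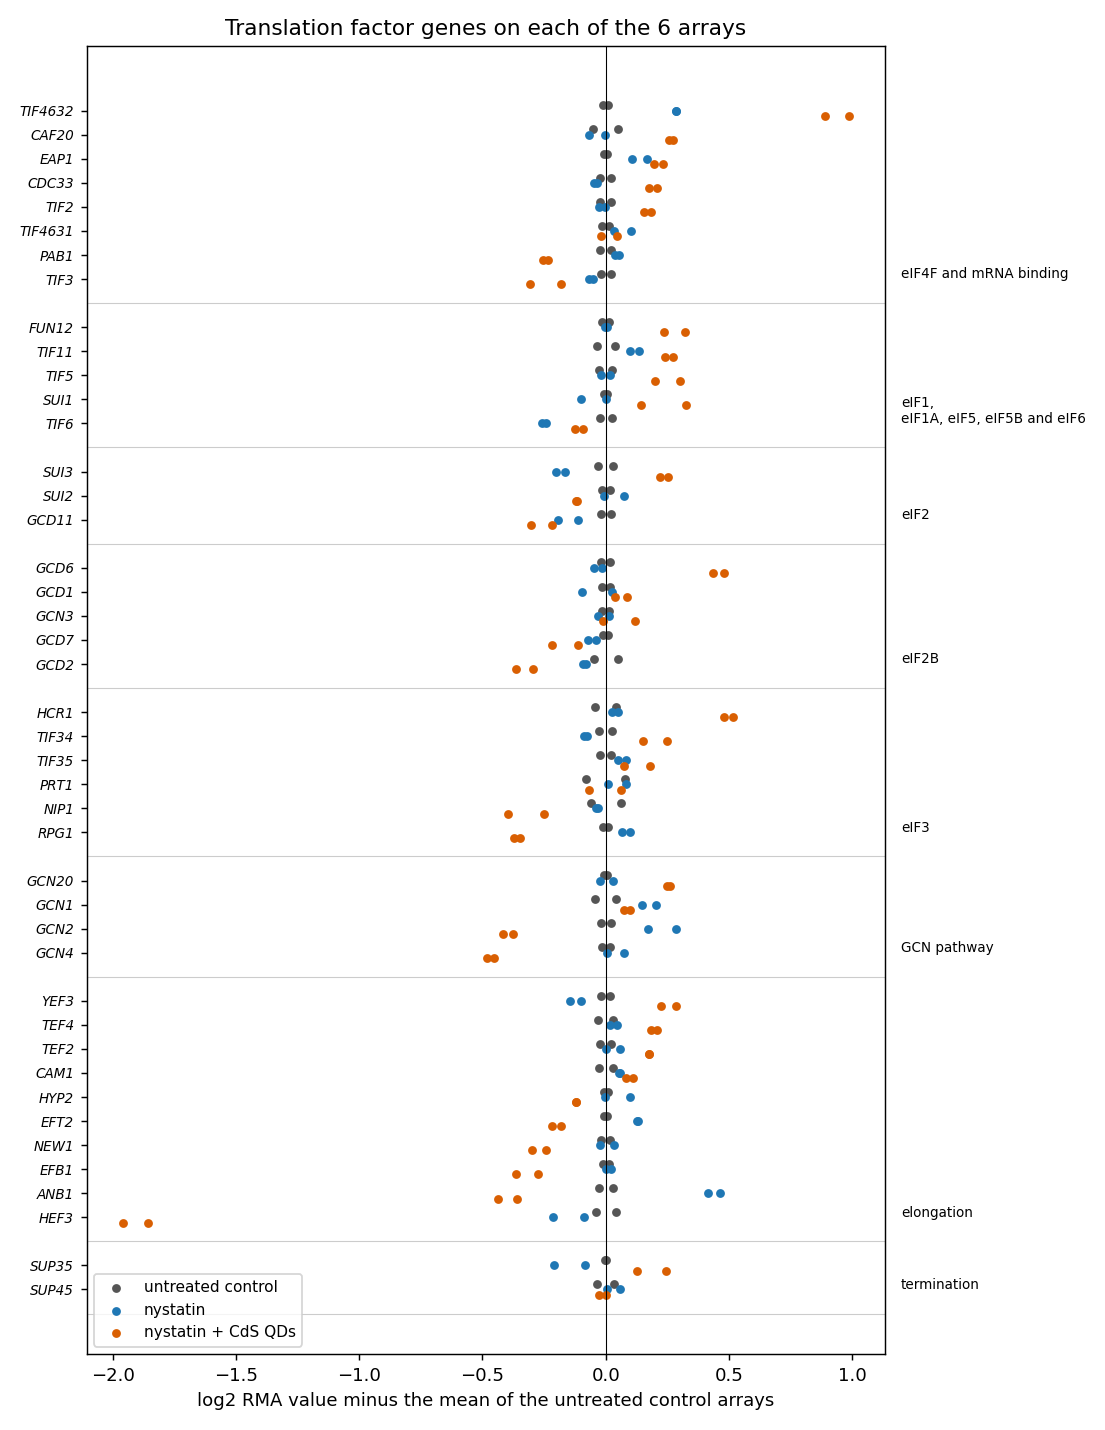
Each factor gene on each of the 6 arrays, as the log2 RMA value minus the mean of the untreated control arrays (x axis), with genes sorted within their role (y axis) and arrays coloured by group. *HEF3* lies lowest and *TIF4632* highest with nystatin plus CdS QDs, and most other factors stay within 0.5 log2 units of the control.

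The ribosomal proteins, with which the factors work, are given for comparison. Of 127 genes of cytosolic ribosomal proteins, 117 rose and 2 fell with CdS QDs, with a median of 0.68, and 75.6% were called with a change of at least 0.5 log2 units. The factor genes lay between −1.91 and 0.94, and 25 of the 43 lay within 0.25 of no change. No test was made of the difference between these lists. With every array centred on the median of the ribosomal protein genes, the median of the factors was −0.76 and that of all genes −0.84. Every factor that rose then lay below the control, from −0.65 (*TIF2*) to −0.32 (*HCR1*), except *TIF4632* at 0.12, so that each rise below is relative to the normalization of the deposited values.

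**Figure D2:**
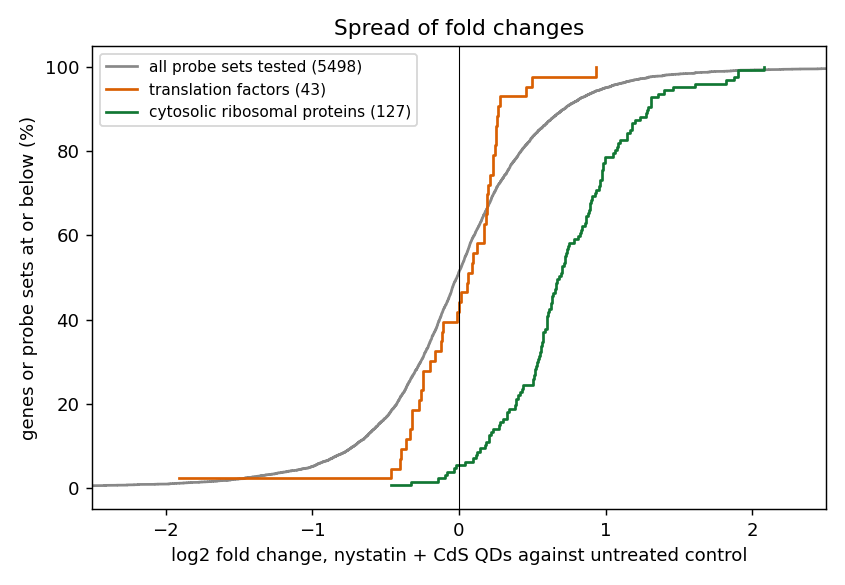
Share of genes or probe sets (y axis, in %) at or below each log2 fold change between CdS QDs arrays and the control (x axis), for all 5498 probe sets tested, 43 translation factors and 127 cytosolic ribosomal proteins. The curve of the factors is steep around a median of 0.06, and that of the ribosomal proteins is shifted to a median of 0.68.

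With nystatin alone 4 factors rose and 2 fell against the control, which is 14.0% of the 43, where 21.8% of all probe sets were called. The genes that rose were *TIF4632*, *GCN1*, *GCN2* and *ANB1*, and *TIF6* and *SUI3* fell. The calls were fragile. Without control replicate 1 or 2, or nystatin replicate 2, 1 gene was called, without nystatin replicate 1 it was 2, and *ANB1* was among them each time. Without eBayes moderation of the variance, or with every probe set of the array in the fit, limma called 0 factors, although 11 and 10 had an unadjusted p under 0.05 in those fits. The median size of the log2 fold change was 0.05 for the factors and 0.10 for all probe sets tested. No factor was called with a change of at least 0.5 (1.82% of all probe sets) or passed the stricter rule (0.109%), and the arrays did not overlap for 23 of the 43 (70.1% of all probe sets).

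From nystatin to CdS QDs, the comparison in which the groups differ by the particles alone, 18 factors rose and 14 fell. Of all probe sets 75% were called, 36.7% up and 38.3% down. The 5 factors *TIF4632*, *GCN2*, *GCN4*, *HEF3* and *ANB1* changed by at least 0.5 log2 units, as did 32.7% of all probe sets, and *HEF3* was again the one past the stricter rule, which 9.53% of all probe sets passed. The arrays did not overlap for 39 of the 43, against 87.4% of all probe sets. This comparison shares its CdS QDs arrays with the one against the control.

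Of the 8 measured genes of eIF4F and its partners, 5 rose, 2 fell and 1 did not pass with CdS QDs against the control. That is 87.5% called, where 75.4% of all probe sets were called (36.5% rose and 38.9% fell), and in each of the other roles below the counts are 10 genes or fewer and are read against the same shares. *TIF4632*, for one of the 2 forms of the scaffold eIF4G, read 7.13 and 7.10 log2 units on the control arrays, 7.40 and 7.40 on those with nystatin, and 8.10 and 8.01 on those with CdS QDs. The 3 groups did not overlap and lay in this order. Its rise was 0.94 (standard error 0.048, limma adjusted p = 3.85e-06), a 1.92-fold change. With nystatin alone it rose by 0.28 (adjusted p = 0.0103), a call that ended when any control or nystatin array was left out (0.0616 to 0.0767), and from nystatin to CdS QDs it rose by 0.65 (adjusted p = 2.12e-05). *TIF4631*, for the other eIF4G, read 6.93 and 6.96 in the control, 6.98 and 7.05 under nystatin and 6.99 and 6.92 under CdS QDs. These values overlap between the control and the CdS QDs arrays, and the difference was 0.01 (95% interval −0.10 to 0.13). Within an array *TIF4632* thus gained 0.93 log2 units on *TIF4631* from the control to CdS QDs, and 0.21 from the control to nystatin. These gains were not tested.

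The other genes at the mRNA end changed less. *CAF20* and *EAP1* encode proteins that bind the cap-binding protein eIF4E and compete with eIF4G for it. Against the control they rose by 0.27 (adjusted p = 0.00273) and 0.21 (adjusted p = 0.00355). *EAP1* was already at 0.14 with nystatin alone (adjusted p = 0.0663). From nystatin to CdS QDs *EAP1* was at 0.08 (adjusted p = 0.155) and did not pass, while *CAF20* rose by 0.30 (adjusted p = 0.00151). *CDC33*, for eIF4E itself, rose by 0.19 against the control (adjusted p = 0.00534). The probe set of *TIF2*, for the helicase eIF4A, read 10.93 and 10.97 in the control, 10.92 and 10.95 under nystatin and 11.13 and 11.10 under CdS QDs, and it rose by 0.17 (adjusted p = 0.00948), a call that ended without control replicate 1 (0.0657). *TIF3*, for eIF4B, which aids eIF4A, had the lowest log2 fold change of the group. It read 8.12 and 8.16, then 8.09 and 8.07, then 7.96 and 7.83, and fell by 0.25 (adjusted p = 0.00477). *PAB1*, for the poly(A)-binding protein, also fell by 0.25 (adjusted p = 0.00150). Thus, against the control, genes of one complex and its partners went both ways. Those of eIF4G2, eIF4E, eIF4A and both eIF4E-binding proteins were higher, and those of eIF4B and the poly(A)-binding protein were lower.

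Genes of eIF1, eIF1A, eIF5 and eIF5B moved the same way. *SUI1* (eIF1), *TIF11* (eIF1A), *TIF5* (eIF5) and *FUN12* (eIF5B, which joins the large subunit) rose with CdS QDs by 0.23 to 0.28, and lay at −0.59 to −0.54 with arrays centred on ribosomal protein genes. *FUN12* read 9.04 and 9.01 in the control, 9.02 and 9.03 under nystatin and 9.26 and 9.34 under CdS QDs, a rise of 0.28 (standard error 0.046, adjusted p = 0.00125). The call of *SUI1* (adjusted p = 0.0182) ended without control replicate 1 or replicate 2 or CdS QDs replicate 1. Its rise was 0.14 to 0.33 with an array left out. The call was also lost without moderation and with every probe set of the array in the fit. *TIF6*, for eIF6, which keeps the large subunit from joining and also serves in its assembly, did not rise against the control. From nystatin to CdS QDs it rose by 0.14 (adjusted p = 0.0210), a call lost with every probe set of the array in the fit. This call also ended without either nystatin array or without CdS QDs replicate 2. The rise was 0.13 to 0.16 with an array left out. *TIF6* read 9.51 and 9.46 in the control, 9.23 and 9.24 under nystatin and 9.36 and 9.39 under CdS QDs. So it was lowest with nystatin alone, where it fell by 0.25 (adjusted p = 0.0110, and 0.0570 to 0.0968 when any control or nystatin array was left out), and was at −0.11 with CdS QDs (95% interval −0.21 to −0.01, adjusted p = 0.0529).

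The 3 genes of eIF2 did not move together. *SUI3* (the beta subunit) read 9.19 and 9.13 in the control, 9.00 and 8.96 under nystatin and 9.38 and 9.42 under CdS QDs. It was lowest with nystatin and highest with CdS QDs, with no overlap between the groups. It fell by 0.18 with nystatin (adjusted p = 0.0319, and 0.0925 to 0.188 when any control or nystatin array was left out), rose by 0.24 with CdS QDs (adjusted p = 0.00244), and rose by 0.42 from nystatin to CdS QDs (adjusted p = 1.37e-04). *GCD11* (the gamma subunit, which binds GTP) read 9.02 and 8.98 in the control, 8.89 and 8.81 under nystatin and 8.70 and 8.79 under CdS QDs. It fell by 0.26 with CdS QDs against the control (adjusted p = 0.00339). With nystatin alone *GCD11* was at −0.15 (adjusted p = 0.0822), and from nystatin to CdS QDs at −0.11 (adjusted p = 0.105), neither called. *SUI2*, for the alpha subunit that Gcn2 phosphorylates, was at −0.12 against the control (95% interval −0.23 to −0.01, adjusted p = 0.0524). From nystatin to CdS QDs *SUI2* fell by 0.15 (adjusted p = 0.0209), a call lost with every probe set of the array in the fit. This call also ended without nystatin replicate 2, and the change was −0.19 to −0.11 with an array left out. Thus against the control 1 gene of the complex rose, 1 fell and 1 did not pass. The 33.3% that rose and 33.3% that fell are close to the 36.5% and 38.9% of all probe sets.

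Among the 5 genes of eIF2B, *GCD6*, for the catalytic epsilon subunit, read 7.99 and 8.03 in the control, 8.00 and 7.96 under nystatin and 8.44 and 8.49 under CdS QDs. The control and nystatin arrays overlap and both CdS QDs arrays lie above them, a rise of 0.46 against the control (standard error 0.044, adjusted p = 7.33e-05), or 1.37-fold. *GCD2*, for the regulatory delta subunit, read 7.49 and 7.39, then 7.36 and 7.35, then 7.08 and 7.15, and fell by 0.33 (adjusted p = 8.95e-04). *GCD7*, for the beta subunit, fell by 0.17 (adjusted p = 0.0196). This call ended without control replicate 1 or replicate 2 or CdS QDs replicate 2, and the change was −0.22 to −0.11 with an array left out. It was also lost without moderation and with every probe set of the array in the fit. From nystatin to CdS QDs *GCD7* was at −0.11 (adjusted p = 0.0873) and did not pass. *GCD1* (gamma) and *GCN3* (alpha) did not pass against the control, at 0.06 (95% interval −0.07 to 0.19) and 0.05 (−0.08 to 0.18).

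Of the 6 genes of eIF3, the largest initiation factor, 2 rose, 2 fell and 2 did not pass, so that 33.3% rose and 33.3% fell, close to the 36.5% and 38.9% of all probe sets. *HCR1*, for a loosely bound subunit that also takes part in termination, read 8.59 and 8.68 in the control, 8.68 and 8.66 under nystatin and 9.11 and 9.15 under CdS QDs, and rose by 0.50 (standard error 0.048, adjusted p = 7.46e-05). *TIF34*, for a subunit of the core, rose by 0.20 (adjusted p = 0.00863, and 0.0617 without control replicate 1). *RPG1*, for the largest subunit, read 8.38 and 8.36, then 8.47 and 8.44, then 8.00 and 8.02, and fell by 0.36 (standard error 0.042, adjusted p = 1.95e-04). Both CdS QDs arrays lay below all 4 others. *NIP1* fell by 0.32 (adjusted p = 0.00333), *TIF35* was at 0.13 (adjusted p = 0.0564) and *PRT1* was at 0.00 (95% interval −0.17 to 0.17). Between *HCR1* and *RPG1* the fold changes of eIF3 genes ranged over 0.86 log2 units.

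The genes of the general control pathway did not move together. *GCN4* mRNA read 11.77 and 11.80 in the control, 11.86 and 11.79 under nystatin and 11.33 and 11.30 under CdS QDs. It fell by 0.47 against the control (standard error 0.046, adjusted p = 8.28e-05), was at 0.04 with nystatin (95% interval −0.07 to 0.15), and fell by 0.50 from nystatin to CdS QDs (adjusted p = 5.83e-05). The kinase gene *GCN2* read 7.83 and 7.87 in the control, 8.02 and 8.13 under nystatin and 7.43 and 7.47 under CdS QDs. It was thus highest with nystatin and lowest with CdS QDs, and no group overlapped another. *GCN2* rose by 0.23 with nystatin (adjusted p = 0.0270), a call that ended without control replicate 1 (0.158) or replicate 2 (0.103) or nystatin replicate 2 (0.148). It fell by 0.40 with CdS QDs (adjusted p = 4.24e-04) and fell by 0.62 from nystatin to CdS QDs (standard error 0.053, adjusted p = 4.33e-05), a 1.54-fold decrease.

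Gcn1 and Gcn20 form the complex that lets Gcn2 sense uncharged tRNA on the ribosome. *GCN20* read 9.08 and 9.09 in the control, 9.07 and 9.12 under nystatin and 9.35 and 9.34 under CdS QDs, and rose by 0.26 (adjusted p = 0.00129). *GCN1* was at 0.09 (95% interval −0.03 to 0.20). With nystatin alone *GCN1* rose by 0.18 (adjusted p = 0.0459), and this call ended when any control or nystatin array was left out (0.111 to 0.214).

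With CdS QDs the largest change among the factors was that of an elongation gene. eEF3 is encoded by *YEF3*, the form used by growing cells, and by its paralog *HEF3*, which is known to be raised when zinc is short. *HEF3* read 10.53 and 10.44 in the control, 10.39 and 10.27 under nystatin and 8.63 and 8.53 under CdS QDs. It fell by 1.91 (standard error 0.063, adjusted p = 6.89e-07) against the control, a 3.75-fold decrease, was at −0.15 with nystatin (adjusted p = 0.130), and fell by 1.75 from nystatin to CdS QDs (adjusted p = 9.29e-07). *YEF3* read 10.29 and 10.26, then 10.13 and 10.17, then 10.50 and 10.56. It rose by 0.26 (adjusted p = 0.00175) against the control and by 0.38 (adjusted p = 2.51e-04) against nystatin. Within an array the difference *YEF3* minus *HEF3* grew by 2.16 from the control to CdS QDs and by 0.03 from the control to nystatin, which was not tested. Cross-hybridization between these similar genes was not tested. Another ATPase of this family, *NEW1*, which acts near termination, fell by 0.27 (adjusted p = 0.00155).

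**Figure D3:**
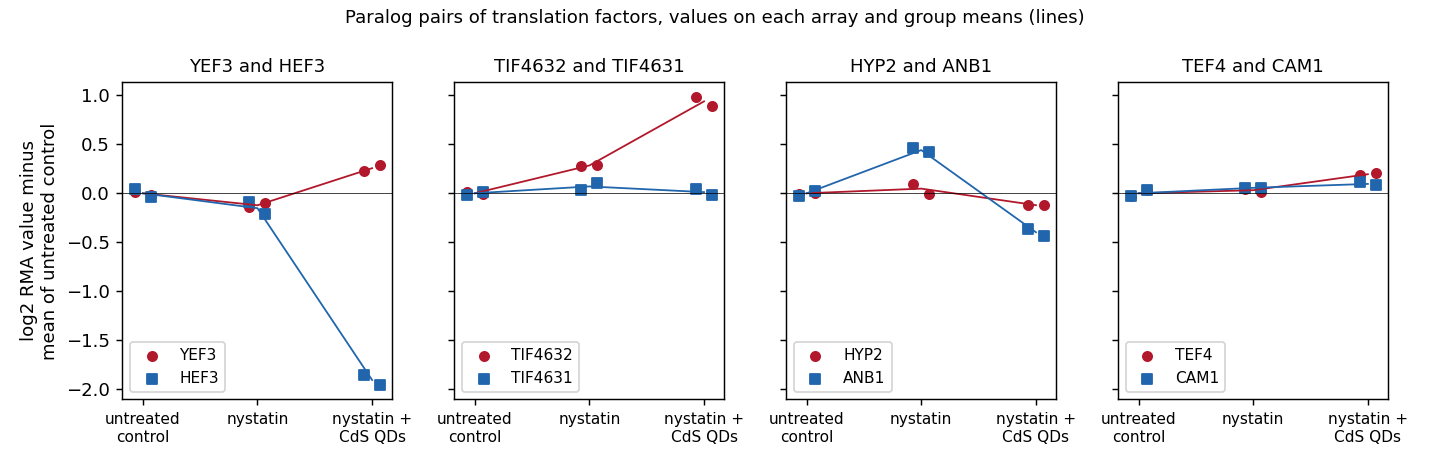
Log2 RMA value minus the mean of the untreated control (y axis) of both genes of 4 paralog pairs in the 3 groups (x axis); points are arrays and lines join group means. *HEF3* and *TIF4632* part from *YEF3* and *TIF4631* with nystatin plus CdS QDs, *ANB1* rises with nystatin and falls with CdS QDs, and *TEF4* and *CAM1* stay within 0.3 of the control.

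The hypusine protein eIF5A, which helps the ribosome through difficult stretches of peptide, has one gene used in air, *HYP2*, and one known to be raised when oxygen is low, *ANB1*. *ANB1* read 5.48 and 5.54 in the control, 5.98 and 5.93 under nystatin and 5.15 and 5.07 under CdS QDs. No group overlapped another. It rose by 0.44 with nystatin (standard error 0.049, adjusted p = 0.00330, and 0.0508 without moderation or 0.0530 with every probe set), a 1.36-fold change, and fell by 0.40 with CdS QDs (adjusted p = 2.73e-04). The difference between these groups, −0.84 from nystatin to CdS QDs (adjusted p = 7.46e-06), was the second in size among the factors. *HYP2* read 11.45 and 11.47, then 11.56 and 11.46, then 11.34 and 11.34. It was at −0.12 against the control (95% interval −0.24 to −0.01, adjusted p = 0.0560) and fell by 0.17 from nystatin to CdS QDs (adjusted p = 0.0163). The latter call ended without nystatin replicate 1, and the change was −0.22 to −0.12 with an array left out. It was also lost with the arrays normalized to one distribution again, and with every probe set of the array in the fit.

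For eEF1A and its exchange factor the genes differed by subunit. The probe set of *TEF2* read 12.67 and 12.71 in the control, 12.75 and 12.69 under nystatin and 12.87 and 12.87 under CdS QDs, and rose by 0.17 (adjusted p = 0.00955). This call ended without control replicate 1, and also with the arrays normalized to one distribution again. The rise was 0.15 to 0.19 with an array left out. *EFB1*, for the catalytic alpha subunit of eEF1B, fell by 0.32 (adjusted p = 7.22e-04). Its gamma subunit has the paralogs *TEF4* and *CAM1*. *TEF4* read 9.88 and 9.94, then 9.96 and 9.93, then 10.09 and 10.12, and rose by 0.19 (adjusted p = 0.00576), whereas *CAM1* read 10.33 and 10.39, then 10.42 and 10.42, then 10.47 and 10.44, and was at 0.10 (95% interval −0.01 to 0.20, adjusted p = 0.0841). The difference between these paralogs, 0.10 log2 units, was not tested. The probe set of *EFT2*, for the translocase eEF2, read 11.21 and 11.20 in the control, 11.33 and 11.34 under nystatin and 11.02 and 10.99 under CdS QDs. It fell by 0.20 against the control (adjusted p = 0.00375) and by 0.33 against nystatin (adjusted p = 3.15e-04). Of the 10 elongation genes measured, 3 rose, 5 fell and 2 did not pass, and the 80% called is near the 75.4% of all probe sets.

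Of the 2 release factors, *SUP35*, for eRF3, read 8.97 and 8.97 in the control, 8.88 and 8.76 under nystatin and 9.21 and 9.10 under CdS QDs. It rose by 0.19 against the control (adjusted p = 0.0274) and by 0.33 against nystatin (adjusted p = 0.00205). The call against the control ended without control replicate 1 or replicate 2 or CdS QDs replicate 1. That rise was 0.13 to 0.24 with an array left out. The same call was lost without moderation and with every probe set of the array in the fit. *SUP45*, for its partner eRF1, read 8.96 and 9.03, then 9.06 and 9.00, then 9.00 and 8.97. The groups overlapped and the difference was −0.01 (95% interval −0.12 to 0.10).

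**Figure D4:**
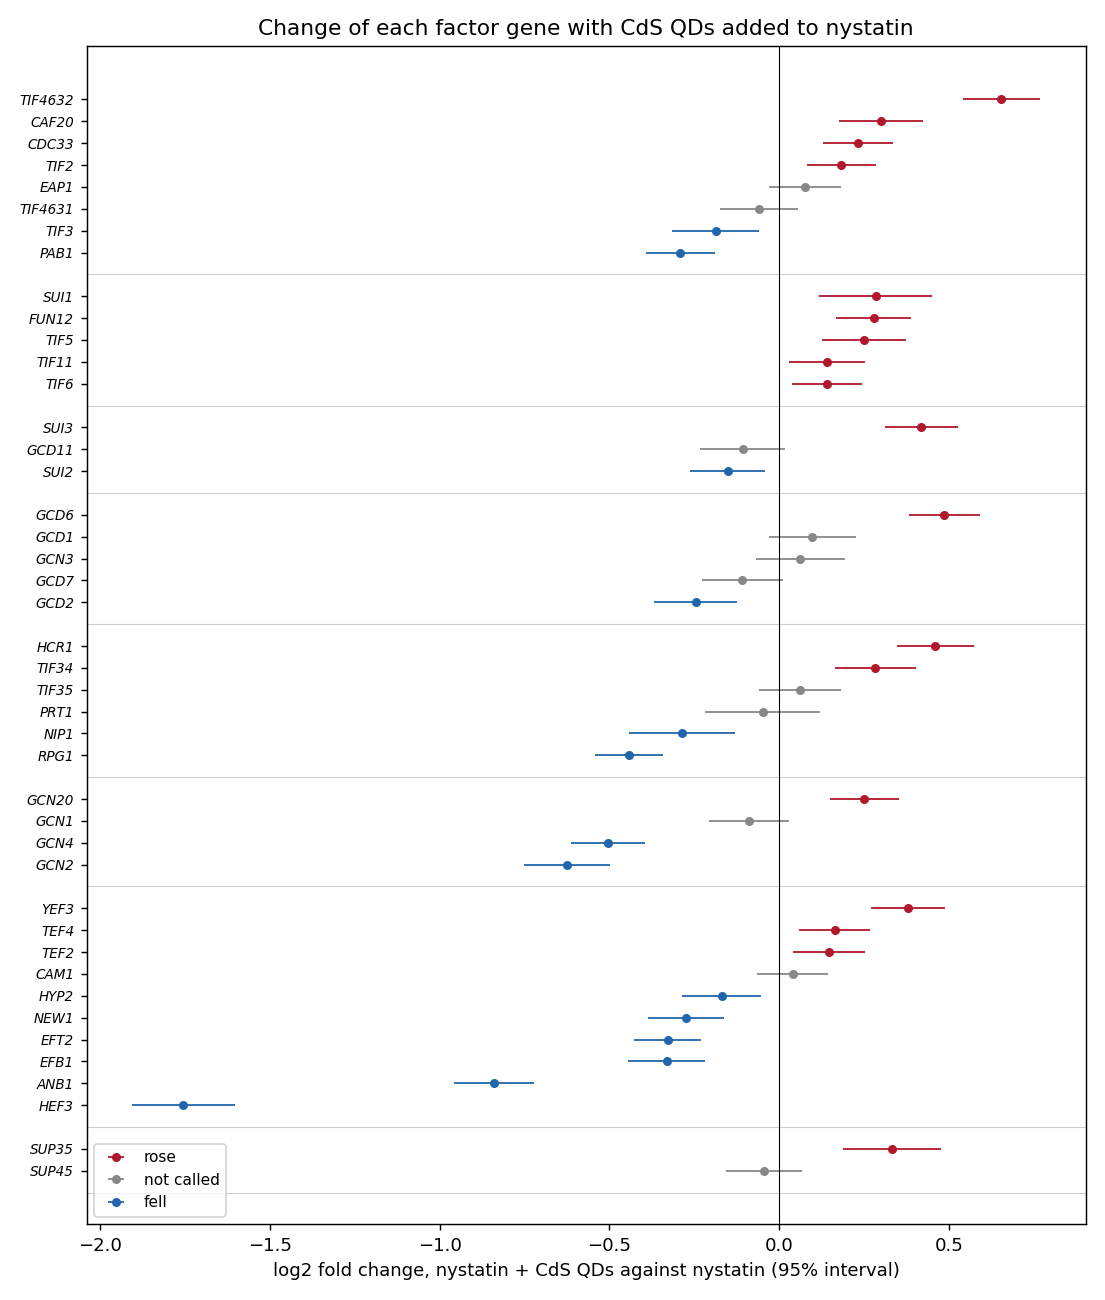
Log2 fold change from nystatin to nystatin plus CdS QDs (x axis) with its 95% interval for each of the 43 factor genes (y axis, grouped by role), coloured by whether the gene rose, fell or was not called. *HEF3* is lowest at −1.75, followed by *ANB1* at −0.84, and *TIF4632* is highest at 0.65.

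A second list of 57 genes that act with the factors had 55 measured, of which 23 rose and 20 fell with CdS QDs against the control (median −0.01, median size 0.34). The 78.2% called is near the 75.4% of all probe sets, of which 36.5% rose and 38.9% fell. Among factors of mitochondrial translation 13 of 16 (81.2%) rose and 2 (12.5%) fell, with a median of 0.45 (−0.37 with arrays centred on ribosomal protein genes). With nystatin alone 11 of 16 rose and 0 fell (median 0.27, and 0.06 with that centring), where 10.4% of all probe sets rose. Whether these nystatin calls hold without moderation, with every probe set in the fit or with an array left out was not examined. *TUF1*, for mitochondrial EF-Tu, rose by 0.93 (adjusted p = 2.26e-06) and *AIM23*, for mitochondrial initiation factor 3, by 0.72 (adjusted p = 8.90e-06). Among 18 genes of recycling, rescue and scanning 6 (33.3%) rose and 8 (44.4%) fell. The paralogous helicase genes *DED1* and *DBP1* went opposite ways there: *DED1* rose by 0.93 (adjusted p = 5.73e-06) and *DBP1* fell by 0.72 (adjusted p = 9.99e-06). Of 14 genes of enzymes that modify translation factors 3 (21.4%) rose and 7 (50%) fell, and among 7 genes of chaperones on the nascent chain 1 (14.3%) rose and 3 (42.9%) fell. *EFM4*, for a methyltransferase of eEF1A, fell by 0.79 (adjusted p = 6.19e-06).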

How the data were processed

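The deposited log2 values of 6 GeneChip Yeast Genome 2.0 arrays were used. They were made by the authors in Affymetrix Expression Console with the RMA method: background correction, normalization of all arrays to one distribution and a summary per probe set. Scanner files were not used here. Of 10928 probe sets, 5498 matched yeast genes through the platform table and were tested. The background of an array was the 95th percentile of its 1747 *Schizosaccharomyces pombe* probe sets, and all 43 factors lay above it on every array. The number of arrays limits the precision.

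Means of the 3 groups were fitted together in limma 3.58.1 (R 4.3.3) with eBayes moderation (3 residual and 3.80 prior degrees of freedom), two-sided, adjusted by Benjamini-Hochberg over 5498 probe sets. Rose, fell and called stand for an adjusted p under 0.05. The script was tested on simulated data.

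The factors, their roles and the second list were chosen with earlier results of these data known, so no list was tested. Values on each array are given for the highest and lowest gene of each of 8 roles, genes past the stricter rule, *GCN4*, paralog pairs and some others, chosen after their values were seen. In the second list the rule named the 4 genes of smallest adjusted p, and *DBP1* was added after its values were seen. Alternatives covered moderation, arrays in the fit, replicate block, scaling, probe sets, thresholds and each array left out. Coordinates and sequences were not used here. Python 3.11.15 with pandas 2.3.3 and matplotlib 3.10.9 served for tables and plots.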

Additional observations from a re-analysis of the deposited data

How the results depend on the processing

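With nystatin plus CdS QDs, 26 to 32 factors were called against the untreated control when an array was left out and 29 to 37 under the other fits, and against nystatin 26 to 32 and 25 to 32, apart from the settings named here. With a minimum change of 0.5 log2 units 2 were called against the untreated control, 5 against nystatin and 0 for nystatin alone, and of the second list 18. For the second list the count ran from 35 to 41 with an array left out and for ribosomal proteins from 113 to 119. For nystatin alone the count of 6 went to 0 without moderation and 0 with all probe sets (unadjusted p under 0.05 in 11 and 10), 10 with an intensity trend, 1 at an adjusted p under 0.01, and 1 to 7 with an array left out. No paired design is stated. Same-numbered arrays deviated from their group means with correlations of −0.05 to 0.02, so the numbers were not taken as pairs. With the replicate number as a block 32, 5 and 32 factors were called in the 3 comparisons, and *SUI3* with nystatin was the only call lost (adjusted p = 0.0504). Each factor has 1 probe set, so that a mean over probe sets changes nothing for them, and no probe set listed several yeast genes, so that alternative was not run.

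Centring on ribosomal protein genes moved the median of all genes to −0.84, −0.22 and −0.62 in the 3 comparisons, and its p-values rest on a residual that all genes share. It left 42, 18 and 39 factors called and 13 past the stricter rule. Against the untreated control these log2 fold changes turned: −0.65 (*TIF2*), −0.65 (*TEF2*), −0.64 (*SUP35*), −0.63 (*CDC33*), −0.63 (*TEF4*), −0.62 (*TIF34*), −0.61 (*EAP1*), −0.59 (*SUI1*), −0.59 (*SUI3*), −0.57 (*TIF5*), −0.57 (*GCN20*), −0.57 (*YEF3*), −0.56 (*TIF11*), −0.56 (*CAF20*), −0.54 (*FUN12*), −0.37 (*GCD6*) and −0.32 (*HCR1*). With nystatin alone *GCN1* turned to −0.037. Against nystatin those that turned were −0.47 (*TIF6*), −0.47 (*TIF11*), −0.46 (*TEF2*), −0.45 (*TEF4*), −0.43 (*TIF2*), −0.38 (*CDC33*), −0.36 (*TIF5*), −0.36 (*GCN20*), −0.33 (*FUN12*), −0.33 (*TIF34*), −0.33 (*SUI1*), −0.31 (*CAF20*), −0.28 (*SUP35*), −0.23 (*YEF3*), −0.19 (*SUI3*), −0.15 (*HCR1*) and −0.12 (*GCD6*).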
